A study of Homo sapiens with 6 samples.

Results

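The genes described here are 39 genes of the tight junction and of apical-basal cell polarity, of 30727 genes listed for each library. They were chosen by name, with no measured value in the rule, but with earlier results of these data known. They are 13 claudins, 3 genes of the occludin family, 7 genes of the junctional plaque, 4 genes of the junctional adhesion molecule (JAM) family, 3 genes of the Crumbs complex, 5 of the Par complex and 4 of the Scribble complex. All 39 were found among the gene IDs of the deposited tables. The samples are polyadenylated RNA of PANC-1, a human cell line that was established from a tumour of the pancreatic duct. Of the 6 libraries, 3 came from cells given siRNA against SUV420H2, now named KMT5C, an enzyme that methylates a lysine of histone H4, and 3 from control cells. All of them are of the same cell line, and the labels name no other allele, drug or treatment in either group. Neither the sequence of the siRNA nor the nature of the control or the time of harvest is given in the sources used here, so an effect of lower SUV420H2 and any other effect of that siRNA cannot be told apart. The comparison of knockdown with control asks which of these genes differed in RNA level between the groups.

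Tight junctions seal the space between neighbouring epithelial cells and mark the border between the apical and the basolateral membrane. Claudins form the strands and set which ions pass between cells, occludin and its relatives join the strands, and the JAM proteins are adhesion molecules beside them. On the inside, plaque proteins of the zonula occludens (ZO) and cingulin families tie the strands to actin, while the Crumbs and Par complexes define the apical side and the Scribble complex the basolateral side. In pancreatic ducts this belt keeps the secreted fluid apart from the tissue, and loss of claudins and occludin is a known feature of epithelial cells that take on a mesenchymal form.

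The controls held 20863594 to 25931995 counted reads each and the knockdown libraries 27007534 to 38022772, and 15190 genes passed the filter on low counts. The targeted gene, KMT5C, was at 3.33, 2.52 and 4.35 RPKM (reads per length of the gene and depth of the library, size-factor adjusted by the authors) in the controls and at 2.12, 2.15 and 2.06 in the knockdown libraries. It fell by 0.72 on the log2 scale (SE 0.163, edgeR adjusted p = 0.00227), or by 0.50 without control replicate 3. That control stood apart: its counts differed from the other controls with a chi-square of 11.3 and 13.6 per degree of freedom, against 1.55 between the other two. It was the control farthest from the control median in 20 of the 34 junction and polarity genes tested. The markers of epithelium were present, with KRT8, KRT18 and KRT19 each at 356 RPKM or more in every library, and GRHL2 and the duct marker CFTR were at or near 0. Of 4 duct markers the 2 tested fell, KRT19 by 0.32 and SOX9 by 0.14 on the log2 scale (edgeR adjusted p = 0.0298 for SOX9), and the sum of the 4 went from 593 to 744 RPKM in the controls to 522 to 549 after knockdown. Of the 7 epithelial markers tested 6 rose and KRT19 fell, where 33.1% of all genes tested were higher and 34.2% lower. ESRP1, one of those that rose, passed the filter only through the knockdown libraries, on 16 control and 651 knockdown reads. The sum of the epithelial markers went from 1400 to 1690 RPKM in the controls to 3170 to 3310 after knockdown. Markers of endothelium (0 of 9 tested) and of astrocytes (0 of 4 tested) were at or near 0. Of the neuron markers TUBB3 fell by 1.05 and SYP by 0.82 and SNAP25 rose by 0.93 on the log2 scale. SNAP25 also passed the filter only through the knockdown libraries. The neuron markers summed to 84.5 to 106 RPKM in the controls and 44.9 to 47.3 after knockdown. Of the microglia and leukocyte markers CD74 fell by 1.52, and ITGAM did not pass (0.02, SE 0.204, edgeR adjusted p = 0.952). The others of that list were under the filter, with at most 4 control reads (CX3CR1) and 16 knockdown reads (TYROBP). These lists were included because the extraction protocol in the labels names neurons, microglia and astrocytes. The part of these shifts in the results on junction genes was not tested.

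Short sequences from around transcript starts are shown first, because the hexamer CACCTG is the known binding word of the repressors ZEB1 and SNAI1. They were chosen after the RNA values had been seen, as a description of the letters, and no comparison with RNA rests on the choice. Promoter windows of 300 bases (250 before to 50 after a start, RefSeq, GRCh38.p14) were at hand for 28 of the 39 members, with 45 windows in all. CACCTG, on either strand (CAGGTG on the other), lay in 15 of these 45 windows (33.3%), against 7231 of 35116 windows of all genes (20.6%). The wider E-box CANNTG, of which CACCTG is a special case, lay in 68.9% of the member windows and in 68.7% of all windows. CRB3 and CLDN7 held the most copies, with 5 each in 1 window. In all, 13 of the 28 members held the word in at least 1 window (CLDN3, CLDN6, CLDN7, CLDN16, CLDN18, OCLN, TJP1, TJP3, CRB3, PATJ, PARD6A, PRKCZ and DLG1). PATJ had 3 and OCLN 1 in the first of its windows, counted along its strand. Of these, the words at base 6 of CLDN7 and base 10 of PATJ lie after the start and are not printed. The stretches around the others are printed 5′ to 3′ on the strand of the gene with the word in capitals, and each is named by where the word begins, counted from the start of the transcript. They lie at chr19:6464041-6464070, chr19:6464116-6464137, chr19:6464174-6464195 and chr19:6464203-6464224 for CRB3 (plus strand), and at chr17:7262639-7262660, chr17:7262600-7262621 and chr17:7262479-7262508 for CLDN7 (minus strand). Those of PATJ lie at chr1:61742301-61742322 and chr1:61742442-61742463 and that of OCLN at chr5:69492506-69492527 (plus strand). All of these stretches lie in annotated exons of GENCODE 29 over their whole length, except the last of CRB3, with 11 of its 22 bases in an exon.
CRB3 at −228 and −208: tgCAGGTGtaaggtccccctcaCACCTGcg
CRB3 at −147: tcccgttaCAGGTGcgcccaca
CRB3 at −89: gcgaggctCAGGTGcacaagcc
CRB3 at −60: cgctctccCAGGTGagtgacta
CLDN7 at −174: ttcctcctCACCTGggcaagga
CLDN7 at −135: ttccggttCAGGTGagtgtccc
CLDN7 at −20 and −9: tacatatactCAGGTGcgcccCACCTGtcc
PATJ at −171: taggaattCACCTGcacgtaaa
PATJ at −30: gggcctgcCAGGTGaggcgcgg
OCLN at −33: ccgagtttCAGGTGaattggtc

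No CACCTG lay in the window of CGN, in the 2 of CLDN11 or in 3 of the 4 of TJP1 (the fourth held it at base −88), and the window of CLDN3 held it only after the start, at base 37. These 4 genes are shown because CGN and CLDN3 were among the members that rose by at least 2-fold, while CLDN11 and TJP1 fell. The stretches printed lie before the start and in no exon of GENCODE 29, at chr1:151511137-151511386 for CGN and chr3:170418618-170418864 for CLDN11 (plus strand), and at chr7:73770271-73770520 for CLDN3 and chr15:29821549-29821729 for TJP1 (minus strand). A match or its absence describes the letters of a window and was not set against binding of any factor. Of the 13 members with the word in a window, 8 rose, TJP1 and PARD6A fell, and CLDN16, CLDN18 and CRB3 were under the filter. Of the 15 with windows but no such word, 8 rose, CLDN11 and LLGL1 fell, 4 did not pass and CLDN2 was under the filter. Of all genes tested, 33.1% were higher and 34.2% lower after knockdown. CLDN6, which holds the word, had passed the filter only through the knockdown libraries. The median log2 fold change of the members tested was 0.58 with the word and 0.32 without it, and this difference was not tested.
CGN: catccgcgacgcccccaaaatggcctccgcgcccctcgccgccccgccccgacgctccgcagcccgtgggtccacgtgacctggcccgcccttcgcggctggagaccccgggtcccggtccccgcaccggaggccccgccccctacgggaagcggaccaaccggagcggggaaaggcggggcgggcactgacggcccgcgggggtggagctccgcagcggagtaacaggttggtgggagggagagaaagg
CLDN3: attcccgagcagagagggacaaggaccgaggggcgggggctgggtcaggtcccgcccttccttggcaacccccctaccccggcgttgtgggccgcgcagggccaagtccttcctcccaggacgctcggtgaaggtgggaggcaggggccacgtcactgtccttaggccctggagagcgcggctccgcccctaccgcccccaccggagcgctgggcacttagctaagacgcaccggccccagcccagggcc
CLDN11: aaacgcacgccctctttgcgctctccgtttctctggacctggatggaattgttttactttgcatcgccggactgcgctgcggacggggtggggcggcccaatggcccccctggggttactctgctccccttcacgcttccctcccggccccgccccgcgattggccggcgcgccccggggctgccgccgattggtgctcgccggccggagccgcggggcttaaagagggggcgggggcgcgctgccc
TJP1: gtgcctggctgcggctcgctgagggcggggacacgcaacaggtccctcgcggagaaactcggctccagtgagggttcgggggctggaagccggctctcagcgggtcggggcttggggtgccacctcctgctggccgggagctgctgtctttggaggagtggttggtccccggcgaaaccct

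Most tested members were higher in the knockdown cells. Of the 39, 34 passed the filter, 22 rose, 4 fell (CLDN11, TJP1, PARD6A and LLGL1) and 8 did not pass the test (CLDN12, CLDN23, MARVELD3, CGNL1, PALS1, PARD3, SCRIB and AMOT). The share called was 76.5% of the members tested against 67.3% of all genes tested, with 33.1% of all genes higher and 34.2% lower. The median log2 fold change was 0.48 over the members tested and −0.01 over all genes. In 9 members the rise was at least 2-fold (CLDN3, CLDN6, CLDN9, OCLN, MARVELD2, CGN, TJP3, F11R and ESAM), as in 8.01% of all genes, and in CLDN11 the fall was, as in 6.01% of all genes. MARVELD2, at 1.12, was the member nearest to 2-fold from above, and CLDN4 (0.93) and TJP1 (−0.93) were the nearest from below. In 24 members every knockdown library lay above every control and in 6 below, and such groups without overlap were found for 71.3% of all genes. Without control replicate 3, 22 members rose and 5 fell, where 11277 of 15424 genes tested were called (5612 higher, 5665 lower). A stricter test, of a change beyond 1.5-fold (edgeR's glmTreat), called 14 members, 12 higher and 2 lower. Of all 15190 genes it called 2998, with 1606 higher and 1392 lower. Among the members tested, CLDN6 alone had passed the filter only through the knockdown libraries. In bulk RNA, more cells of a kind and more RNA per cell cannot be told apart.

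**Figure D1:**
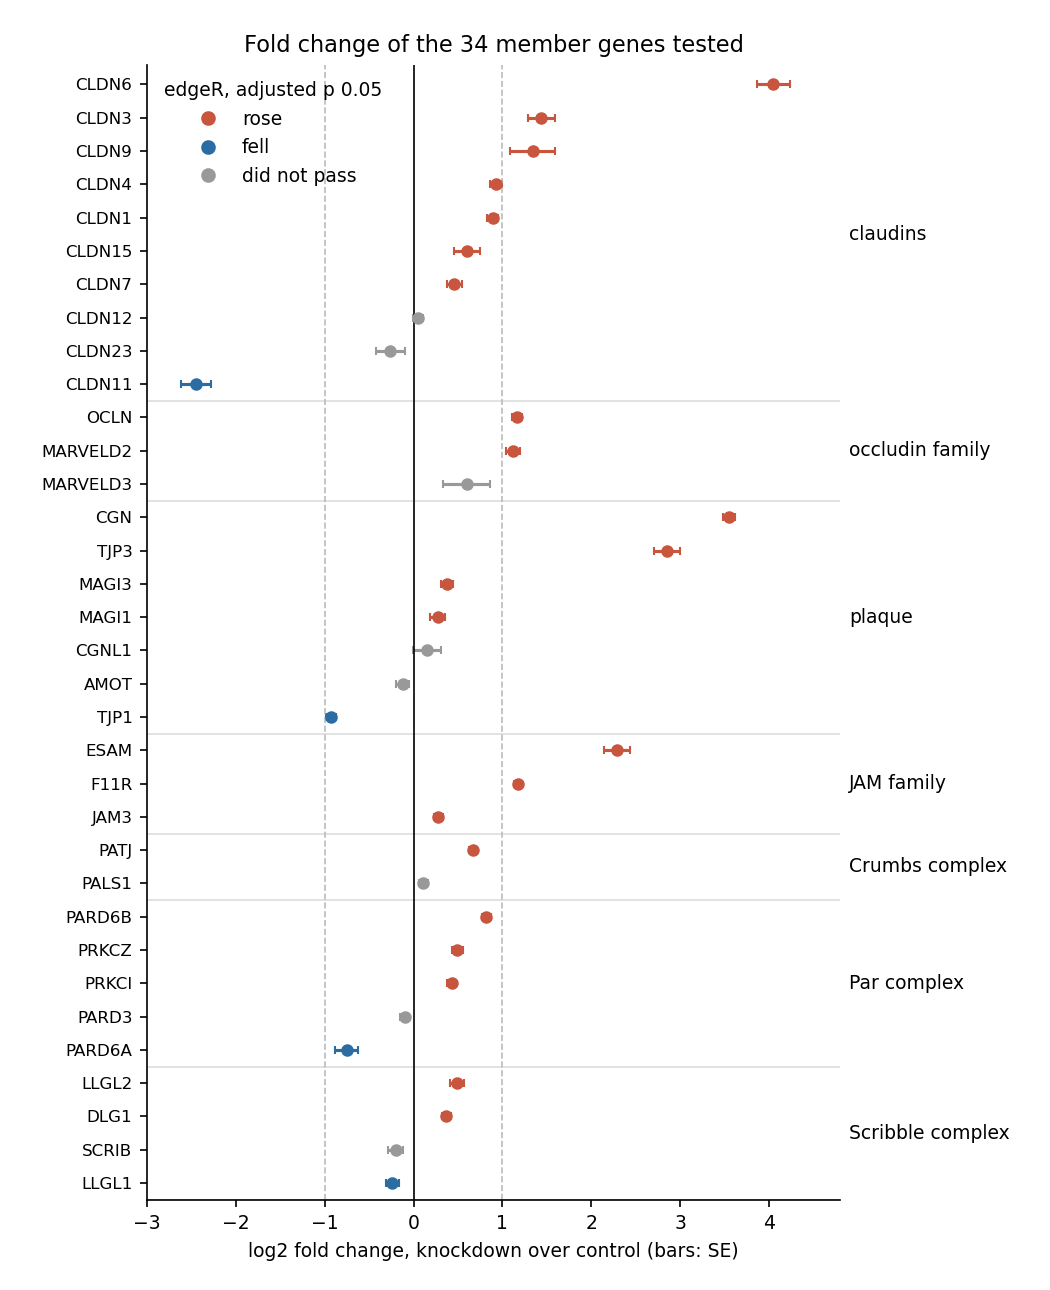
Log2 fold change of knockdown over control (x axis; bars are SE) for the 34 members tested, ordered by group of genes, with colours for those that rose, fell or did not pass at an edgeR adjusted p of 0.05. CLDN6 (4.05), CGN (3.55) and TJP3 (2.85) lie farthest to the right and CLDN11 (−2.45) farthest to the left; dashed lines mark a 2-fold change.

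Claudins rose more often than they fell, with 7 of the 10 tested higher, CLDN11 lower and CLDN12 and CLDN23 without a call. Of all genes 33.1% were higher and 34.2% lower. CLDN6, counted among the higher, had passed the filter only through the knockdown libraries. The most abundant claudin was CLDN4 (gene ID 1364; GRCh38 chromosome 7, 73830996 to 73832690), a claudin of tight epithelia that is common in pancreatic tumours. It stood at 67.7, 63.4 and 76.7 RPKM in the controls and at 141, 131 and 129 in the knockdown libraries. All 3 knockdown libraries lay above all controls, by 0.93 on the log2 scale (SE 0.0692, edgeR adjusted p = 4.88e-07). CLDN3 (gene ID 1365; chromosome 7, 73768997 to 73770270), its neighbour and, like it, a receptor of a Clostridium perfringens toxin, had 3.35, 2.69 and 4.87 RPKM in the controls and 10.3, 10.3 and 9.74 after knockdown. The rise of CLDN3 was 1.44 (SE 0.156, edgeR adjusted p = 1e-05), and it was 1.71 without control replicate 3, the highest of the controls. CLDN1 (gene ID 9076; chromosome 3, 190305707 to 190322446), which builds the barrier of skin and many epithelia, measured 12.9, 12.8 and 10.9 RPKM in the controls and 22.8, 23.3 and 22.8 after knockdown. Its increase was 0.89 (SE 0.0620, edgeR adjusted p = 2.77e-07), with no overlap between the groups.

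The largest relative rise of any member was that of CLDN6 (gene ID 9074; chromosome 16, 3014712 to 3018183), a claudin of embryonic epithelia that is silent in most adult tissues. CLDN6 was at 0.198, 0.171 and 0.165 RPKM in the controls, from 18 reads in all, and at 2.89, 3.08 and 3.15 in the knockdown libraries, from 404 reads. The groups were far apart, with a fitted rise of 16.5-fold (log2 4.05, SE 0.183, edgeR adjusted p = 1.08e-08). CLDN6 had passed the count filter only through the knockdown libraries, where it is high, so this p-value carries that limit. CLDN9, which lies next to it and is known from the inner ear, was measured on 35 control and 120 knockdown reads and rose by 1.34 (SE 0.252, edgeR adjusted p = 0.000651), with 0.183 to 0.293 RPKM in the controls and 0.494 to 0.699 after knockdown. Exons of CLDN6 share 40 bases with TNFRSF12A on the other strand, and whether reads were counted by strand is not given in the sources used here.

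Smaller rises were seen for CLDN7 and CLDN15. CLDN7 (gene ID 1366; chromosome 17, 7259903 to 7263213), which is also found along the lateral membrane, had 9.98, 8.79 and 9.93 RPKM in the controls and 14.5, 11.9 and 13.6 in the knockdown libraries. Its change was 0.46 (SE 0.0854, edgeR adjusted p = 0.000600). CLDN15, a pore-forming claudin that lets sodium pass in the gut, went from 0.675, 0.857 and 0.938 to 1.31, 1.16 and 1.31 RPKM, a rise of 0.60 (SE 0.150, edgeR adjusted p = 0.00425). The groups of neither gene overlapped, but neither gene passed the 1.5-fold test (adjusted p = 1.0 for CLDN7 and 0.727 for CLDN15).

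CLDN11 (gene ID 5010; chromosome 3, 170418868 to 170434691), known from myelin and from Sertoli cells of the testis, moved the other way. It was at 1.35, 1.34 and 1.39 RPKM in the controls and at 0.313, 0.189 and 0.228 in the knockdown libraries. The 3 knockdown values lay well under the controls, with a fall of 2.45 on the log2 scale (SE 0.168, edgeR adjusted p = 2.54e-07), from 287 to 70 reads. CLDN11 shares 683 of 3732 exon bases with another coding gene model on its strand. Of the oligodendrocyte markers, MOG, MAG and MOBP were near 0 in every library, and MBP, whose gene also gives transcripts outside the nervous system, rose by 0.11 (SE 0.0383, edgeR adjusted p = 0.0209). The Sertoli cell genes SOX8 and AMH rose, by 1.40 and 0.89, and the kidney tubule genes UMOD and SLC12A1 were near 0. The part of these markers in the fall was not tested.

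CLDN12 and CLDN23 did not pass the test, and their groups overlapped. CLDN12 (gene ID 9069), a claudin without the usual C-terminal motif that binds ZO proteins, stood at 15.5, 16.0 and 14 RPKM in the controls and at 15.9, 15.3 and 16.4 after knockdown. The difference was 0.05 (SE 0.0562, edgeR adjusted p = 0.469). CLDN23 (gene ID 137075) measured 1.15, 1.39 and 1.46 RPKM against 1.13, 1.35 and 0.936, a difference of −0.26 (SE 0.163, edgeR adjusted p = 0.185) that passed only with all libraries thinned to equal depth (−0.46, edgeR adjusted p = 0.0267). The 3 claudins under the filter had few reads. CLDN16, a magnesium claudin of the kidney, had 6 control and 35 knockdown reads (ratio of depth-scaled counts 4.35, 95% exact interval 1.81 to 12.7). CLDN2, a cation pore, had 1 and 7 reads (ratio 5.23, 0.671 to 236), and CLDN18, a stomach and lung claudin, 18 and 15 (ratio 0.622, 0.292 to 1.31). These intervals cover counting error only. In a fit without the filter CLDN16 had an edgeR adjusted p of 0.00135, against 0.236 for CLDN2 and 0.354 for CLDN18. That fit shifted the edgeR adjusted p of tested genes too, with KMT5C at 4.59e-10 and MAGI1 at 0.0214, against 0.00227 and 0.0116 with the filter. Its p-values for such low counts are therefore not comparable with those of the main fit.

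**Figure D2:**
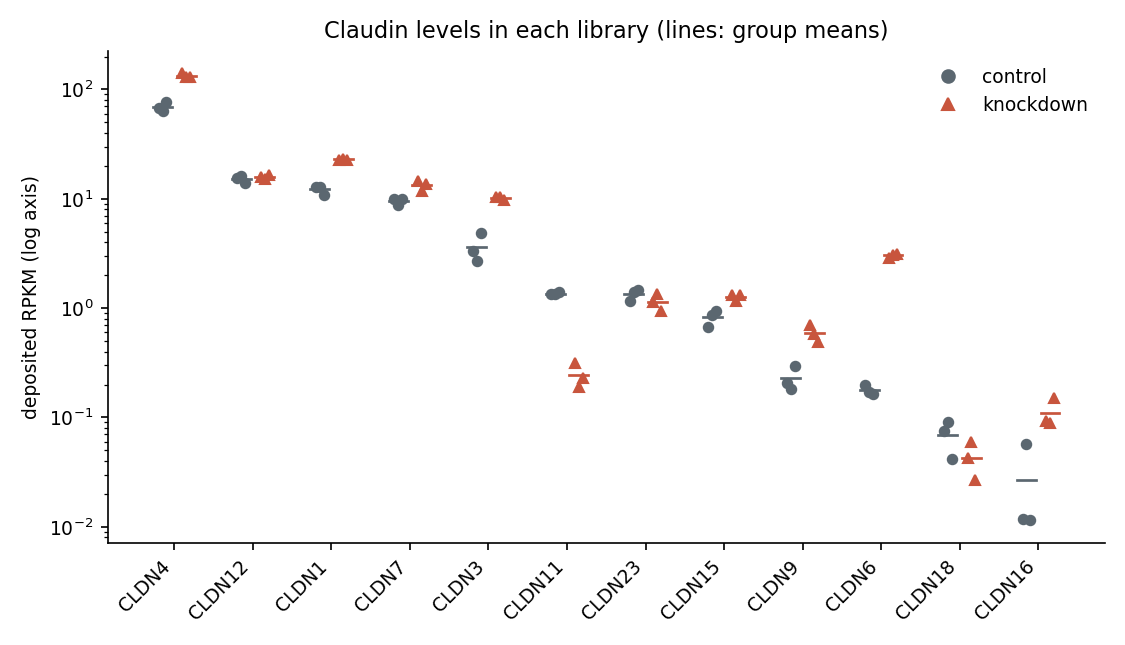
Level of each of 12 member claudins (y axis: deposited RPKM, log axis) in the 3 control (circles) and 3 knockdown (triangles) libraries, with lines at the group means. CLDN4 is the highest in both groups, CLDN6 moves from 0.178 to 3.04 RPKM and CLDN11 from 1.36 to 0.244, and CLDN12 overlaps. CLDN2, with no read in 2 controls, is not drawn.

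Per length, the RNA of the whole claudin family rose while CLDN4 kept the first place. The RPKM of the 24 claudins listed summed to 118.8, 113.8 and 126.6 in the controls and to 225.1, 213.2 and 212.7 after knockdown. Every knockdown library was above every control. CLDN4 held 57.8% ± 2.52 (SD, n = 3) of that sum in the controls and 61.6% ± 0.895 (SD, n = 3) after knockdown. The share of CLDN12 fell from 12.7% to 7.31% although its own level overlapped between the groups, so that CLDN1, at 10.3% and 10.6%, was the second claudin after knockdown. In each control CLDN12 stood above CLDN1, and in each knockdown library CLDN1 stood above CLDN12. CLDN10, a claudin outside the 39 with forms for cations and for anions, went from 2.98% to 5.70%, and CLDN3 from 3.01% to 4.66%. CLDN6 went from 0.149% to 1.40% and CLDN11 from 1.14% to 0.112%, so these 2 changed places. All 2581 exon bases of CLDN22, at 1.72% in the controls and 1.0% after knockdown, are shared with WWC2 on the other strand. Without known strand the reads of that pair cannot be told apart. CLDN12 shares 347 of 6741 exon bases with GTPBP10, among other genes on its strand.

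**Figure D3:**
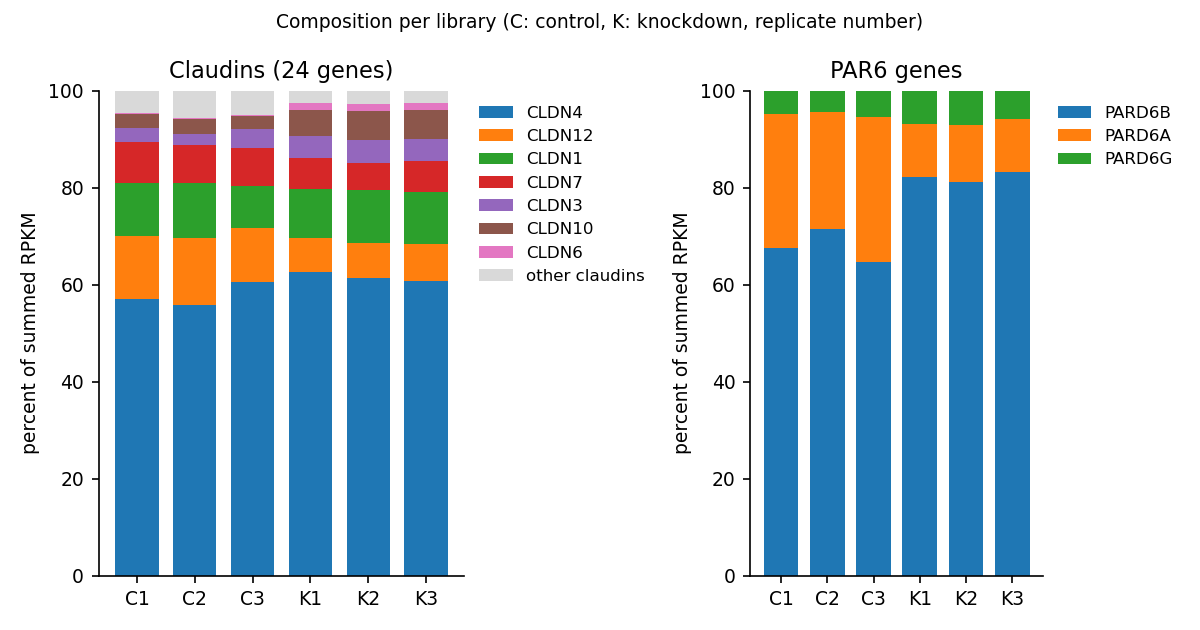
Share of each gene in the summed RPKM of its family (y axis, percent) in every library (C, control; K, knockdown; numbered by replicate), for the 24 claudins on the left and the 3 PAR6 genes on the right. CLDN4 keeps at least 55.7% of the claudin sum in all 6 libraries, while PARD6B goes from 67.9% to 82.1% of the PAR6 sum and PARD6A from 27.2% to 11.2%.

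In the occludin family the 2 more abundant members rose by over 2-fold. OCLN (gene ID 100506658; chromosome 5, 69492547 to 69558104), the namesake membrane protein of the junction, was at 3.44, 3.70 and 3.35 RPKM in the controls and at 7.89, 7.89 and 7.85 after knockdown. The knockdown libraries had a coefficient of variation of 0.299% and lay above all controls, by 1.16 on the log2 scale (SE 0.0554, edgeR adjusted p = 1.69e-08). OCLN has a pseudogene copy, OCLNP1, and reads that fit both are left out of unique counts. MARVELD2 (gene ID 153562; chromosome 5, 69415116 to 69444330) encodes tricellulin, which closes the corners where cells meet. Its levels were 5.46, 5.70 and 4.84 RPKM against 10.9, 11.8 and 12.4, a rise of 1.12 (SE 0.0738, edgeR adjusted p = 1.93e-07) without overlap. MARVELD3, on 37 control and 75 knockdown reads, stood at 0.60 (SE 0.266, edgeR adjusted p = 0.0676), and it passed with libraries thinned to equal depth (0.78, adjusted p = 0.0317) or without knockdown replicate 3 (0.72, adjusted p = 0.0463). Its exons share 1068 bases with PHLPP2 on the other strand.

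The 3 JAM genes tested all rose, against 33.1% of all genes tested. F11R (gene ID 50848; chromosome 1, 160995211 to 161021152), which encodes JAM-A, the JAM of epithelia and an anchor for the Par complex, was the second most abundant membrane gene of the 39 after CLDN4. It stood at 27.9, 27.3 and 25.3 RPKM in the controls and at 62.0, 60.4 and 62.8 after knockdown. The groups were clearly apart, by 1.18 (SE 0.0449, edgeR adjusted p = 3.5e-09), although F11R shares 1853 of 5066 exon bases with another coding gene model on its strand. ESAM (gene ID 90952; chromosome 11, 124753126 to 124762290), better known from endothelium and platelets, had 0.393, 0.524 and 0.400 RPKM in the controls and 2.26, 2.11 and 2.07 after knockdown. This rise of 2.29 (SE 0.151, edgeR adjusted p = 1.89e-07) came without endothelial markers: the 9 listed summed to 0.104 to 0.188 RPKM in the controls and 0.109 to 0.213 after knockdown, and none passed the count filter. The antisense gene ESAM-AS1 overlaps it and rose by 1.23 (SE 0.302, edgeR adjusted p = 0.00376), and without known strand the reads of the pair cannot be told apart.

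JAM3, which sits in junctions of epithelium and endothelium, rose by 0.28 (SE 0.0552, edgeR adjusted p = 0.000988), from 20.6, 23.0 and 20.8 to 27.2, 24.9 and 26.8 RPKM. It shares 465 exon bases with NCAPD3 on the other strand, and it did not pass the 1.5-fold test (adjusted p = 1.0). JAM2 was under the filter with 6 control and 25 knockdown reads (ratio 3.11, 95% exact interval 1.25 to 9.27, counting error only). Without the filter its edgeR adjusted p was 0.0323, from a fit whose p-values are not comparable with those of the main fit.

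Plaque genes held a rise of over 10-fold, of CGN, and the largest loss in RPKM, of TJP1. CGN (gene ID 57530; chromosome 1, 151510170 to 151538692) encodes cingulin, which links ZO proteins to myosin and microtubules and holds a RhoA activator at the junction. It was at 1.04, 1.14 and 0.956 RPKM in the controls and at 12.3, 12.2 and 12.6 after knockdown. All knockdown values were more than 10 times the controls, and the fitted rise was 11.7-fold (log2 3.55, SE 0.0699, edgeR adjusted p = 4.84e-11). Its relative CGNL1 (paracingulin) lay between 0.196 and 0.275 RPKM in all libraries (0.15, SE 0.158, edgeR adjusted p = 0.445). CGN made up 82.5% ± 2.81 (SD, n = 3) of the RPKM of this pair in the controls and 98.0% ± 0.191 (SD, n = 3) after knockdown.

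The 2 ZO scaffolds of the list changed in opposite directions. TJP1 (gene ID 7082; chromosome 15, 29699367 to 29969049) encodes ZO-1, which also sits at cadherin junctions of cells without tight junctions. It measured 18.3, 18.8 and 16.1 RPKM in the controls and 9.12, 9.45 and 9.74 after knockdown. No knockdown library reached a control, and TJP1 fell by 0.93 (SE 0.0568, edgeR adjusted p = 1.04e-07). TJP3 (gene ID 27134; chromosome 19, 3708384 to 3750813), which encodes ZO-3, the ZO protein most restricted to epithelium, was at 0.252, 0.318 and 0.388 RPKM in the controls and at 2.18, 2.43 and 2.46 after knockdown. Its rise was 2.85 (SE 0.145, edgeR adjusted p = 2.63e-08), again without overlap.

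The changes of the other plaque genes were smaller. MAGI3 rose by 0.38 (SE 0.0696, edgeR adjusted p = 0.000505) and MAGI1 by 0.27 (SE 0.0792, edgeR adjusted p = 0.0116); both encode scaffolds with PDZ domains. AMOT, an angiomotin that ties junctions to the Hippo pathway, stood at −0.12 (SE 0.0737, edgeR adjusted p = 0.159). Neither MAGI gene passed the 1.5-fold test.

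**Figure D4:**
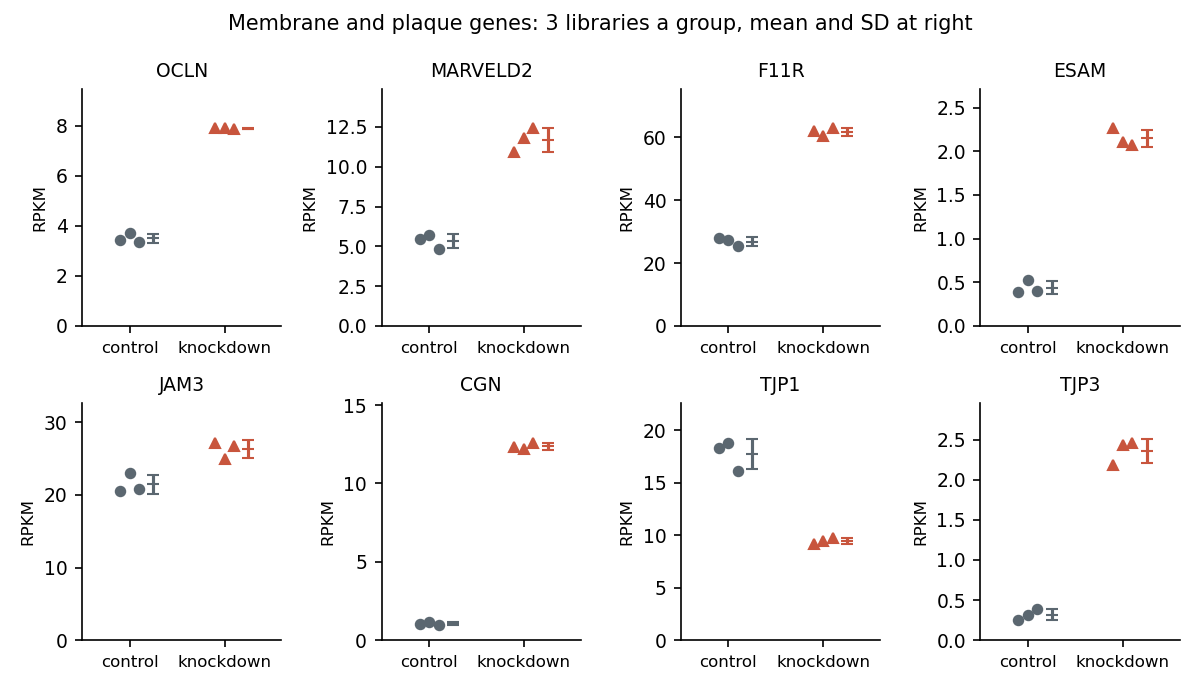
Deposited RPKM (y axes, each from 0) of 8 membrane and plaque genes in the 3 control and 3 knockdown libraries, with the mean and SD at the right of each group. OCLN, MARVELD2, F11R, ESAM, JAM3, CGN and TJP3 lie higher in all knockdown libraries, and TJP1 lies lower, at 9.12 to 9.74 against 16.1 to 18.8 RPKM.

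The 11 genes of the Crumbs, Par and Scribble complexes that passed the filter among the 39 each had a fitted change of less than 2-fold: 6 rose and 2 fell, against 33.1% and 34.2% of all genes. In the Crumbs complex, PATJ (gene ID 10207; chromosome 1, 61742480 to 62163915), a scaffold that links Crumbs to ZO-3 and claudins, was at 4.40, 4.42 and 4.18 RPKM in the controls and at 6.85, 7.13 and 6.94 after knockdown. The groups did not overlap, and PATJ rose by 0.67 (SE 0.0473, edgeR adjusted p = 3.26e-07), and did not pass the 1.5-fold test (adjusted p = 0.0713). PALS1, the middle piece of the complex, was far more abundant per length, at 21.6 RPKM in the controls and 23.5 after knockdown, and stood at 0.11 (SE 0.0520, edgeR adjusted p = 0.0949). CRB3 (gene ID 92359), the Crumbs protein of epithelia, was barely detected. It had 3 reads in the controls (0.0503, 0.0304 and 0 RPKM) and 29 after knockdown (0.132, 0.210 and 0.254 RPKM), a ratio of 7.22 with a 95% exact interval of 2.24 to 37.0 for counting error only. CRB3 lay under the count filter. Without the filter its edgeR adjusted p was 0.000617, from a fit whose p-values are not comparable with those of the main fit.

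In the Par complex the 2 PAR6 genes of the list moved apart. PARD6B (gene ID 84612; chromosome 20, 50731580 to 50753741) stood at 8.65, 8.50 and 8.25 RPKM in the controls and at 15.6, 14.4 and 15.3 after knockdown. It rose by 0.82 (SE 0.0509, edgeR adjusted p = 1.18e-07), with no overlap. PARD6A (gene ID 50855; chromosome 16, 67660960 to 67662774) went from 3.54, 2.86 and 3.83 to 2.07, 2.09 and 2.04 RPKM, a fall of 0.75 (SE 0.129, edgeR adjusted p = 0.000353). PAR6 proteins bind CDC42 and hold atypical protein kinase C, and with PARD6G counted PARD6B made up 67.9% ± 3.47 of the PAR6 RPKM in the controls and 82.1% ± 0.995 (SD, n = 3 each) after knockdown. PARD6A made up 27.2% ± 2.99 and 11.2% ± 0.456. PARD6A did not pass the 1.5-fold test (adjusted p = 0.160).

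Both atypical kinases rose without overlap. PRKCI, the main one in epithelial tumours, rose by 0.43 (SE 0.0497, edgeR adjusted p = 1.68e-05), with means of 13.7 and 18.7 RPKM, and PRKCZ by 0.49 (SE 0.0619, edgeR adjusted p = 3.19e-05), with means of 6.95 and 9.90. Neither passed the 1.5-fold test. PRKCZ shares 590 exon bases with FAAP20 on the other strand. PARD3, the scaffold that recruits PAR6 and the kinase to the junction, stood at −0.10 (SE 0.0480, edgeR adjusted p = 0.0956), and at −0.12 without control replicate 3 (adjusted p = 0.00652).

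Among the Scribble genes, the lethal giant larvae homologues went in opposite directions. LLGL2, the form of epithelia, rose by 0.49 (SE 0.0809, edgeR adjusted p = 0.000252), from 10.0, 9.36 and 12 to 15.2, 14.7 and 14.7 RPKM, and LLGL1 fell by 0.24 (SE 0.0719, edgeR adjusted p = 0.0124), from 7.26, 7.45 and 8.53 to 6.73, 6.75 and 6.48 RPKM. The fall of LLGL1 did not pass without knockdown replicate 3 (adjusted p = 0.0528). DLG1 (gene ID 1739; chromosome 3, 197042560 to 197299321), the member of this complex with the smallest p, was at 16.3, 16.5 and 14.3 RPKM in the controls and at 20.3, 20.6 and 20.4 after knockdown. DLG1 is a PDZ scaffold of the lateral membrane, and it rose by 0.37 (SE 0.0528, edgeR adjusted p = 9.21e-05). SCRIB, the third partner, overlapped between the groups at 23.5 to 31.1 and 23.1 to 24.2 RPKM (−0.20, SE 0.0870, edgeR adjusted p = 0.0617). Its highest value was control replicate 3, and it passed in the DESeq2 Wald test (adjusted p = 0.0376), without the low-count filter (0.000781) and without control replicate 2 (0.00329). LLGL1, LLGL2 and DLG1 did not pass the 1.5-fold test.

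**Figure D5:**
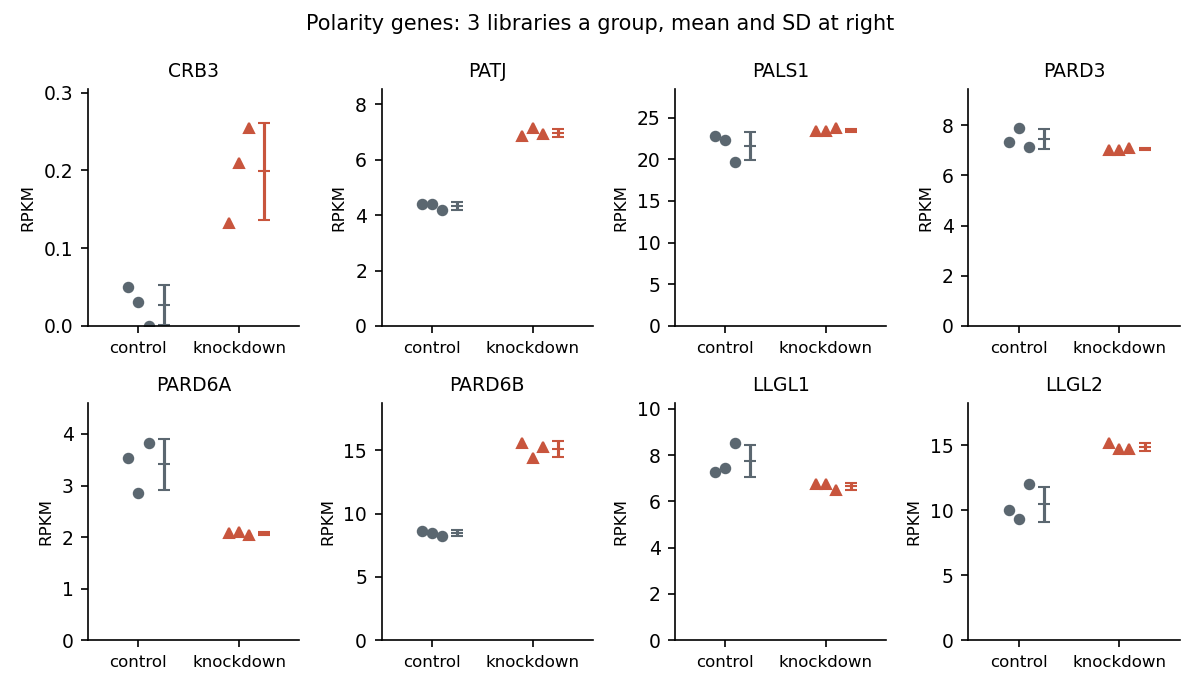
Deposited RPKM (y axes, each from 0) of 8 polarity genes in the 3 control and 3 knockdown libraries, with the mean and SD at the right of each group. PARD6B, LLGL2 and PATJ lie higher and PARD6A and LLGL1 lower in all knockdown libraries, and CRB3 lies at 0.254 RPKM or less in every library.

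The spread between libraries was unlike in the groups. Over the members tested, the median coefficient of variation of RPKM was 8.13% in the controls and 3.38% after knockdown. The controls include replicate 3, which stood apart over all genes, with a chi-square of 11.3 and 13.6 per degree of freedom against the others. Between control replicates 1 and 2 it was 1.55, and between knockdown libraries 1.98 to 2.26. CLDN3, CLDN9 and TJP3 varied most among the controls (30.8%, 25.4% and 21.3%), and CLDN11 and MARVELD3 most after knockdown (25.9% each).

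Of 58 further genes of the pathway, 43 were tested, and 27 rose, 9 fell and 7 did not pass, so that 83.7% were called, against 67.3% of all genes (33.1% higher, 34.2% lower). Their median log2 fold change was 0.43, and this list too was chosen with earlier results of these data known. The rises were mostly of membrane (5 of 6) and plaque genes (13 of 15). Among the membrane genes that rose, ILDR2 had passed the filter only through the knockdown libraries, on 12 control and 70 knockdown reads. Of the 20 polarity genes 8 rose and 7 fell, shares near those of all genes. Of these polarity genes, MPP7 (1.87) and DLG2 (1.26) rose and PARD3B (−1.12), DLG4 (−1.02) and TIAM1 (−1.01) fell by at least 2-fold, MPP7 having passed the filter only through the knockdown libraries. EPCAM, a cell adhesion protein that stabilises claudins, had the smallest p and rose by 2.35 (SE 0.0627, edgeR adjusted p = 3.04e-10), from 7.79 ± 0.457 to 40.3 ± 1.02 RPKM (SD, n = 3). CLDN10 rose by 1.78 (SE 0.0603), from 3.58, 3.53 and 3.57 to 12.2, 12.4 and 12.5 RPKM, though 1558 of its exon bases are shared with DZIP1 on the other strand. WWC1 (KIBRA), a Hippo scaffold that binds PATJ, rose by 1.67 (SE 0.0588), and CXADR, a virus receptor and junction adhesion protein, by 1.34 (SE 0.0531). AMOTL2, an angiomotin, rose by 1.09 (SE 0.0484), and the edgeR adjusted p of each of these was 9.98e-09 or less.

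The list of 15 known regulators of junction genes was also chosen with earlier results of these data known. It gave 13 tested, with 9 higher, ZEB1 lower and 3 not passing, so that 76.9% were called against 67.3% of all genes. ELF3, an ETS factor of epithelia, had the smallest p and rose by 2.94 (SE 0.0578, edgeR adjusted p = 4.84e-11), from 4.17 ± 0.242 to 32.4 ± 0.879 RPKM (SD, n = 3). GRHL3, a grainyhead factor known for control of barrier genes, rose by 3.02 (SE 0.0692, edgeR adjusted p = 1.13e-10), from 2.98 ± 0.252 to 24.6 ± 0.762 RPKM. CDX2, an intestinal factor, rose 2.82-fold (SE of the log2 value 0.134), OVOL2, a repressor of ZEB1, by 2.97 on the log2 scale (SE 0.326) from 14 to 149 reads, and HNF4A by 2.71 (SE 0.331) from 11 to 99 reads. OVOL1, with 1 control read and 51 knockdown reads, also rose. OVOL1, OVOL2 and HNF4A passed the filter only through the knockdown libraries. ZEB1, a repressor of epithelial genes, went from 7.16, 7.38 and 6.51 to 4.54, 4.63 and 4.40 RPKM, a fall of 0.65 (SE 0.0587, edgeR adjusted p = 2.26e-06). SNAI1 was higher by 0.38 (SE 0.0815, edgeR adjusted p = 0.00170), and SNAI2 and ZEB2, both at 0.256 RPKM or less, did not pass.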

How the data were processed

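The submitters' processing notes name GSNAP as the aligner and GRCh38 as the build. Per the file headers, the authors deposited for each gene the count of uniquely aligned reads and an RPKM adjusted by a size factor. The annotation, the strand setting and the size-factor method were not given in the sources used here. Counts over RPKM were a constant per library times a constant per gene, so the RPKM add nothing to the counts and were used for levels per length, with mean ± SD.

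Symbols came from RefSeq (GRCh38.p14) by gene ID, for 27814 of 30727 IDs. IDs without a symbol stayed in the tests. Groups came from the siRNA label; replicates were numbered 1 to 3 in accession order, which only names a library. The labels do not say that libraries came from separate cultures, so p-values measure the spread between these libraries, which may be technical. Deposited counts were filtered (filterByExpr, minimum count 10), scaled by TMM and tested with edgeR 4.0.16 (quasi-likelihood, two-sided), adjusted by Benjamini-Hochberg over all genes, threshold 0.05. The SE is the log2 fold change over the square root of the F statistic. "Fell", "rose" and "called" refer to this threshold. The biological coefficient of variation was 0.0779 in the controls, replicate 3 included, and 0.0237 after knockdown.

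Per-library values are given for members past the threshold with at least a 2-fold change and mean log2 CPM of at least 0, for the member of smallest p in each group, for claudins of at least 1 RPKM, and for a few chosen after their values were seen (such as TJP1, JAM3, PARD6A, LLGL1 and LLGL2). Of the other pathway genes and regulators, the 6 of smallest p were named, except what is not reported here; SNAI1, SNAI2 and ZEB2 were added after their values were seen, as were the promoters printed and the 5 polarity genes past 2-fold. The members and lists were chosen with earlier results of these data known. Exon overlaps are from GENCODE 29. Planned protein sequences were not used here. Alternatives were other scalings, filters and tests (DESeq2 1.42.0, limma 3.58.1), thinning and leaving out each library.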

Additional observations from a re-analysis of the deposited data

How the results depend on the processing

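No paired analysis was possible because the labels give no replicate numbers and those used here only name the libraries. Of the values of single members under the alternatives, 452 kept their direction and their side of the threshold, 13 no longer passed, 7 newly passed and 1 changed sign. A test against a 1.5-fold change called 2998 genes of all (1606 higher, 1392 lower), 14 members (12 higher, 2 lower) and 16 other pathway genes (13 higher, 3 lower); KMT5C stayed at −0.72 there but no longer passed (adjusted p = 0.305). That test asks for a larger change by construction. Leaving out each library in turn gave 9184 to 11277 genes called (4533 to 5612 higher, 4651 to 5665 lower), 26 to 27 members (22 to 23 higher, 3 to 5 lower), 35 to 39 other pathway genes (26 to 29 higher, 9 to 10 lower) and −0.88 to −0.50 for KMT5C. The summed claudin RPKM ran from 116.3 to 122.7 in the controls and from 213.0 to 219.1 after knockdown. CLDN12, without a call, ran from −0.00264 (without control replicate 3) to 0.09 (without control replicate 2); the cause was not tested. Without the low-count filter 30 of the 39 members were called (25 higher, 5 lower), against 10820 of 24531 genes in all (5399 higher, 5421 lower). Depth limits CLDN2, CLDN16, CLDN18, JAM2 and CRB3, with at most 35 reads in a group.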

Other observations

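Genes within 100 kb of 5 members with large changes or high levels were listed after the members' values had been seen. The counts below stand beside 33.1% of all genes tested that were higher and 34.2% that were lower. Around CLDN6, 6 neighbours rose, 3 fell, 6 did not pass and 2 were under the count filter. CLDN9 lies 207 bases from it. TNFRSF12A, a receptor of the tumour necrosis factor family, rose by 1.09 (SE 0.103), IL32, a cytokine gene, by 1.34 (SE 0.0918) and KREMEN2 by 1.15 (SE 0.151). THOC6, of the mRNA export complex THO, fell by 0.83 (SE 0.0776). Around CGN the 3 neighbours tested all rose, with TUFT1, 1617 bases away, at 1.41 (SE 0.0457), SNX27 at 0.56 (SE 0.0491) and POGZ at 0.30 (SE 0.0452). CLDN3 lies 60726 bases from CLDN4, and the gene nearest to CLDN4, METTL27, stood at 0.58 (SE 0.241, edgeR adjusted p = 0.0506). Within 100 kb of CLDN4, CLDN3 and ABHD11 (0.22, SE 0.0785) rose, BICDL3P fell by 1.40 (SE 0.415, on 44 control and 22 knockdown reads) and TMEM270 was under the filter. SKIL, the neighbour of CLDN11 that was tested, rose by 0.72 (SE 0.0738) where CLDN11 fell. Around ESAM, NRGN and ESAM-AS1 rose, at 1.52 (SE 0.206) and 1.23 (SE 0.302), and SIAE, MSANTD2 and MSANTD2-AS1 fell.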
